A study of Caenorhabditis elegans with 2 samples.

Results

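The genes described here encode the 8 subunits of the CCT chaperonin of Caenorhabditis elegans, and they were examined for binding of T26A8.4, annotated in RefSeq as a C3H1-type domain-containing protein. The members were chosen by gene name, as cct-1 to cct-8 in the Ensembl annotation of WBcel235, after peak values of these data at such genes were known, so their peak values are given as a description without a test. They are 8 of 19973 protein-coding genes on the nuclear chromosomes. T26A8.4 was mapped by chromatin immunoprecipitation and sequencing (ChIP-seq) with an anti-GFP antibody in whole L4 larvae of strain OP692, 48 hours old, synchronised by bleaching followed by starvation at the L1 stage. The animals carried the integrated transgene wgIs692, which expresses T26A8.4 with TY1, EGFP and 3xFLAG tags and rescues unc-119, in the unc-119(tm4063) background. The 2 libraries, biological replicates 1 and 2, formed 1 group with no second condition. The signal is that of a tagged transgene copy over all tissues of the animal, so the cells in which a site was bound cannot be told apart.

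CCT is the cytosolic chaperonin of eukaryotes, a pair of stacked rings in which each subunit is the product of a different gene. It encloses unfolded proteins and folds them with energy from ATP, and actin and tubulin are its best known substrates. Prefoldin, a smaller hexameric chaperone, delivers these substrates to the ring. Each subunit has a fixed place in the ring. The genes cct-1 to cct-8 encode, in order, the subunits alpha, beta, gamma, delta, epsilon, zeta, eta and theta.

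Peaks were taken from the authors' lists. The combined list holds 2993 summits made from both replicates that passed a threshold on the IDR, the irreproducible discovery rate. The IDR scores each peak by how consistently it ranks between separate sets of reads. Each replicate has its own thresholded list, of 1933 summits for replicate 1 and 2141 for replicate 2. The ranked lists also hold weak regions, with 68113 summits for the combined input, 70405 for replicate 1 and 66732 for replicate 2. Peak signal is the authors' score, compared within a list. A gene was called bound when a combined summit lay in its promoter window, which reached from 1000 bp before the gene start of the annotation to 200 bp after it. Offsets are counted from that start, with negative values upstream.

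The promoter windows of cct-1, cct-6 and cct-8 held a summit of the combined list, 3 of 8 genes, and those of cct-2, cct-3, cct-4, cct-5 and cct-7 held none. Over all protein-coding genes 7.06% were bound by the same call, a share printed as background because the choice of the members used this measure. The sequences around the 3 promoter summits are shown because these are the peaks on which the account of the family rests. Each is 201 bp of WBcel235 centred on the summit and written 5′ to 3′ on the strand of the CCT gene. The capitals mark the core of the heat shock element, which is bound by heat shock factor. This core is a pair of GAA units on opposite strands, 2 bp apart, written GAANNTTC or TTCNNGAA. The units face each other in GAANNTTC (cct-1 and cct-8) and point apart in TTCNNGAA (cct-6). The windows are chrII:8185107-8185307 on the plus strand for cct-1, chrIII:5855881-5856081 on the minus strand for cct-6 and chrIV:1094261-1094461 on the minus strand for cct-8.
cct-1: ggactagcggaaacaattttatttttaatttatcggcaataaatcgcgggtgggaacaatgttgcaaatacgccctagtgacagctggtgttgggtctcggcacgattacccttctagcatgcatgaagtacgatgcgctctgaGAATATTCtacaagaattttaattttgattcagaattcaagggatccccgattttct
cct-6: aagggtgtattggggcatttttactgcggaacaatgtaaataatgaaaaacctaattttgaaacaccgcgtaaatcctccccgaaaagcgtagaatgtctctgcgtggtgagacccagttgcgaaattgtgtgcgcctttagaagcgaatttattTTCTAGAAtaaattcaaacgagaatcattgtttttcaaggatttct
cct-8: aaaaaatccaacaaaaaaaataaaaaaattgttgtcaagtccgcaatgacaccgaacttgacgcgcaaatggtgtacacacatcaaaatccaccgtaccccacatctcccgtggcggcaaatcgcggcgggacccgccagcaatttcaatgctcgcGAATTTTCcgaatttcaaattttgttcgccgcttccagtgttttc

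The peak of cct-8, which encodes the theta subunit, was the strongest of the family. It ran over 303 bp, from 1094213 to 1094515 on chromosome IV, with its summit at −441 bp. The signal was 991 in the combined list, where it ranked 26 of 2993. The replicates gave 497 and 497, at ranks 24 of 1933 and 23 of 2141 in their own thresholded lists, with summits at −441 bp and −442 bp. Both replicates placed this peak at nearly the same base and among the strongest of their lists. The strongest window peak was weaker in 99.9% of protein-coding genes in each of the 3 ranked lists, counting genes with no ranked peak as 0, and 15 genes had a stronger one in the combined list.

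The peak of cct-1, the alpha subunit gene, was the next strongest, over 270 bp from 8185062 to 8185331 on chromosome II. Its summit lay at −236 bp and its combined signal was 548, at rank 93. Replicate 1 gave 287 at rank 83 of its list, with the summit at −243 bp, and replicate 2 gave 266 at rank 101, with the summit at −248 bp. The replicates placed the summit slightly farther from the gene than the combined list did, and the peak passed the threshold in each of the 3 lists.

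The peak of cct-6, the zeta subunit gene, was weaker and did not pass in either replicate alone. It covered 420 bp from 5855771 to 5856190 on chromosome III, with its summit at −294 bp, a combined signal of 125 and rank 1439. In the ranked lists of the replicates the signal was 50.2 at rank 2670 in replicate 1 and 74.5 at rank 1186 in replicate 2. The integer scores of these peaks were 672 and 453, where the lowest score of a thresholded peak was 830. Replicate 2 thus had the higher signal and the lower score. The peak was kept in the conservative list of the authors, as were those of cct-1 and cct-8. In that list 6.63% of protein-coding genes were bound. In the replicates' own lists only cct-1 and cct-8 were bound among the 8 members, 2 of 8 in each, where 4.84% of protein-coding genes were bound in replicate 1 and 5.50% in replicate 2.

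**Figure D1:**
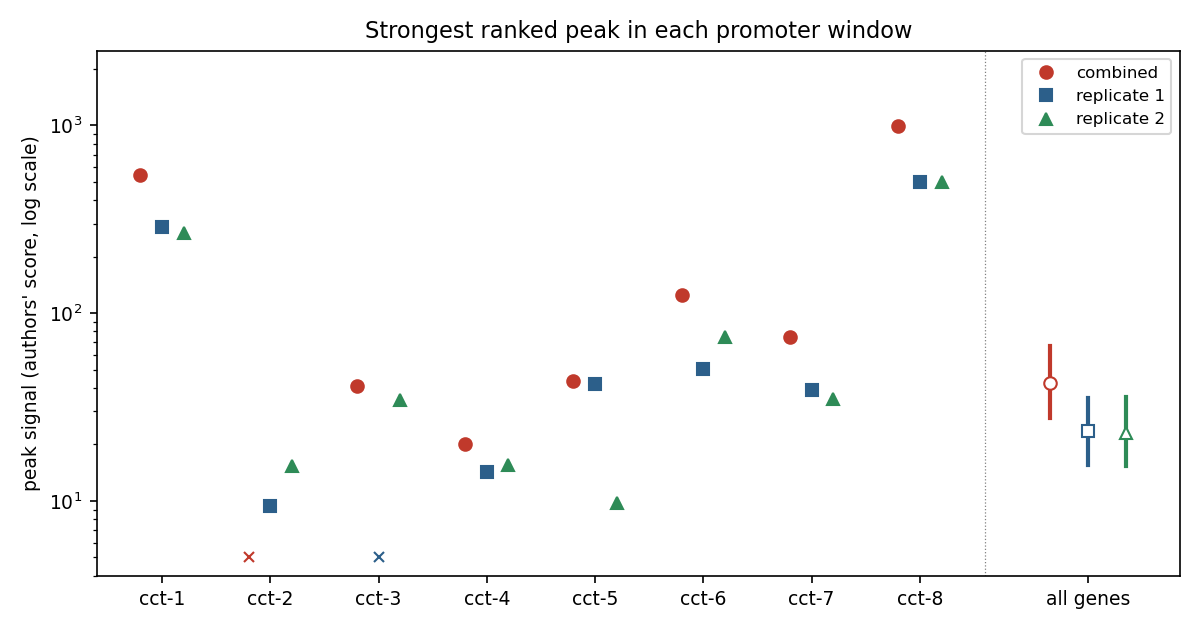
Strongest ranked peak in the promoter window of each CCT gene (vertical axis, the authors' peak signal on a log scale) in the combined list (circles), replicate 1 (squares) and replicate 2 (triangles), with crosses where a list has no peak; at the right, open symbols and bars give the median and the middle 50% over all protein-coding genes with a ranked peak. cct-8 (991, 497 and 497) and cct-1 (548, 287 and 266) stand above the others in all 3 lists, and cct-6 (125, 50.2 and 74.5) comes next.

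The 5 other promoter windows held weak peaks or none. The window of cct-7, the eta subunit gene, had a ranked peak at −268 bp with a combined signal of 74.5 and a score of 583, the closest to the threshold among the members that did not pass. The replicates gave 39.2 at −248 bp and 34.8 at −242 bp. That summit lay 2 bp upstream of the start of T10B5.13, a noncoding RNA gene between cct-7 and its upstream neighbour. For cct-5, the epsilon subunit gene, the combined peak at −430 bp had a signal of 43.7, and the replicates differed, with 42.0 in replicate 1 and 9.74 in replicate 2. For cct-3, the gamma subunit gene, the combined peak was at +174 bp with 40.8, replicate 2 gave 34.6 at +138 bp, and replicate 1 had no ranked peak in the window.

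The delta and beta subunit genes were lowest in the combined list. The strongest combined peak of cct-4 was 20.2 at +197 bp, with 14.3 in replicate 1 at −838 bp and 15.6 in replicate 2 at +159 bp, so that the replicates pointed to different places. The window of cct-2 had no combined ranked peak, and the replicates gave 9.45 at −999 bp and 15.4 at +81 bp. Over the 8646 protein-coding genes with a combined ranked peak in the window, the median signal was 42.7 and the middle 50% ran from 27.5 to 67.1. The values of cct-5 and cct-3 lay close to that median and that of cct-4 lay below the lower quartile. Those of cct-7, cct-6, cct-1 and cct-8 lay above the upper quartile. The order of the combined signals was cct-8, cct-1, cct-6, cct-7, cct-5, cct-3, cct-4 and cct-2. The first 3 places were the same in both replicates. Further down the neighbours could not be ordered, since cct-5 was above cct-7 in replicate 1 and below cct-4 in replicate 2. With only 2 replicates no error is given for these signals.

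**Figure D2:**
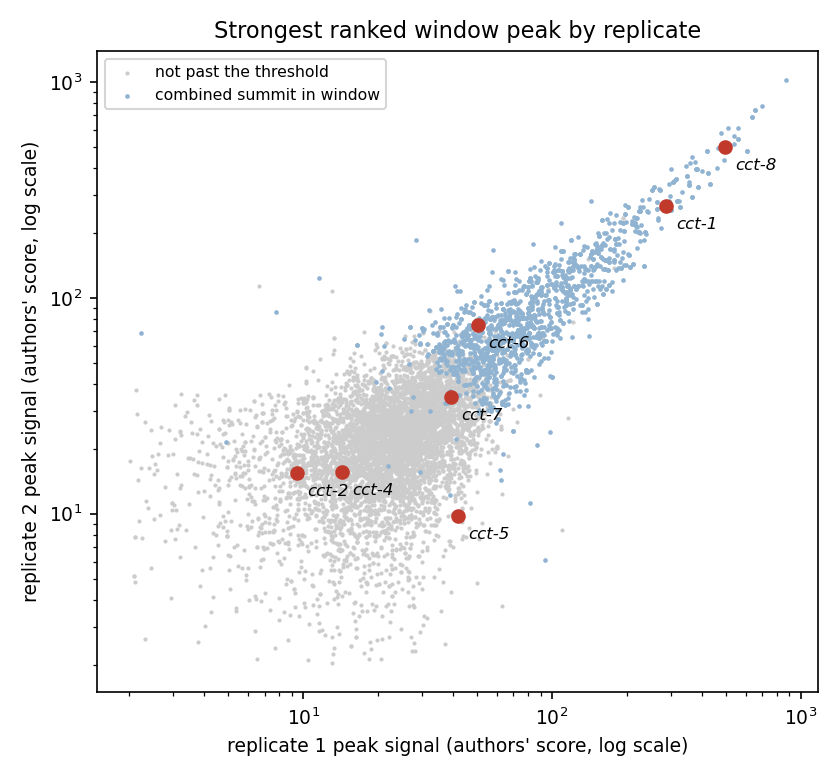
Strongest ranked promoter-window peak in replicate 1 (horizontal) and replicate 2 (vertical), both the authors' peak signal on log scales, for 7448 protein-coding genes with a ranked peak in both; blue points have a combined summit in the window and red points are CCT genes (cct-3 has no replicate 1 peak and is not drawn). cct-8 and cct-1 lie on the narrow upper end of the cloud, cct-6 lies among the weaker bound genes, and cct-5 lies off the diagonal, at 42.0 and 9.74.

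All 8 CCT genes have a divergent upstream neighbour, a protein-coding gene read in the opposite direction, whose start lies at most 1200 bp away. Such an arrangement holds for 19.8% of protein-coding genes, and 13.0% of the genes that have it were bound. The limit of 1200 bp lies just above the largest distance among the members, 1190 bp for cct-2, so the 8 of 8 depends on it. The start of the neighbour lay 331 bp from that of cct-6 (alh-9), 420 bp from that of cct-1 (mig-5), 439 bp from that of cct-7 (T10B5.4) and 459 bp from that of cct-4 (nst-1). It lay 621 bp away for cct-8 (Y55F3AR.2), 741 bp for cct-5 (F25F2.1), 1070 bp for cct-3 (F54A3.6) and 1190 bp for cct-2 (B0457.2). The bound members did not have the shortest gaps as a group, since cct-4 and cct-7 have shorter gaps than cct-8.

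Each of the 3 promoter summits lay between the starts of a divergent pair and was nearer to the neighbour than to the CCT gene. The intervals of the cct-1 and cct-8 peaks also lay between the starts, while that of cct-6 reached past the start of alh-9. The cct-1 summit was 184 bp upstream of mig-5, a Dishevelled homologue of the Wnt pathway, against 236 bp for cct-1. The cct-6 summit was 37 bp upstream of alh-9, a putative aldehyde dehydrogenase, against 294 bp for cct-6. The cct-8 summit was 180 bp upstream of Y55F3AR.2, which encodes a thioredoxin domain protein, against 441 bp for cct-8. A noncoding RNA gene, Y55F3AR.4, also lay within 500 bp of the cct-8 summit, which was outside the promoter window of that gene. When each summit was counted only for the protein-coding gene with the nearest start, 0 of 8 CCT genes were bound and 5.49% of all protein-coding genes were. Of the 514 bound genes with a divergent neighbour start at most 1200 bp away, 256 (49.8%) lost their call in the same way. The annotated start of a worm gene can be a trans-splice site downstream of where transcription begins, so distances to the true starts were not measured. ChIP-seq peaks cannot assign a summit between divergent starts to either gene.

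**Figure D3:**
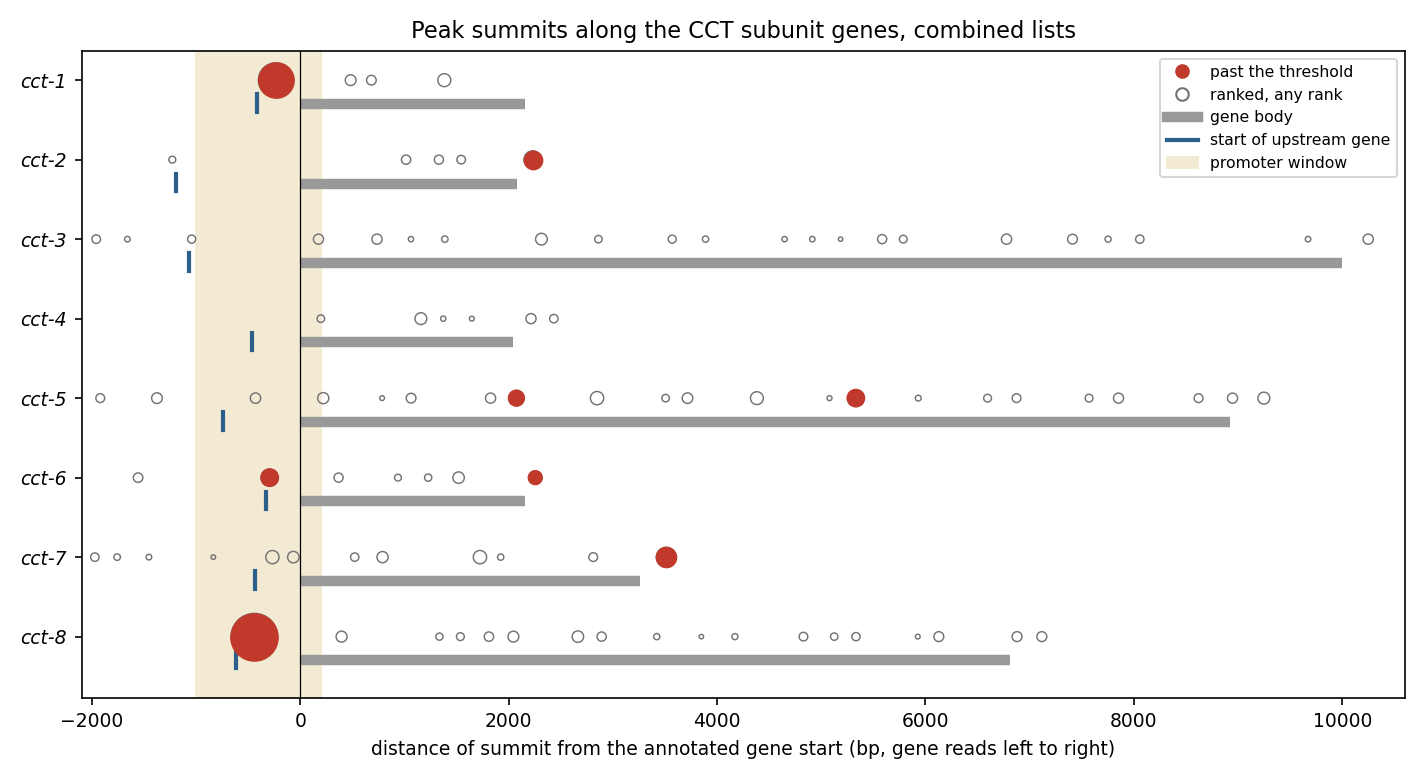
Summits along each CCT gene, by distance from the annotated start (horizontal axis, bp, each gene read left to right), with circle area rising with combined signal; filled circles passed the threshold, open circles are ranked summits of any rank, grey bars are gene bodies, blue ticks mark the start of the divergent upstream gene, and the shaded band is the promoter window. The filled circles of cct-1, cct-6 and cct-8 lie in the band between the CCT start and the blue tick, those of cct-5 lie within the gene, and those of cct-2, cct-7 and the second of cct-6 lie past the gene end.

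The heat shock element core was found at each of the 3 promoter summits and on the same side of it. On the strand of the CCT gene its first base lay 44 bp past the summit in cct-1, 55 bp in cct-6 and 56 bp in cct-8, towards the CCT start. These positions are −192, −239 and −385 bp from the gene starts. The match was GAATATTC in cct-1, TTCTAGAA in cct-6 and GAATTTTC in cct-8. The peak of cct-7 below the threshold also held a match, TTCGAGAA, with its first base 54 bp past the summit. All these distances are from combined summits. The replicate summits of cct-8 and cct-1 lay close to the combined ones. Those of cct-6 lay at −315 and −309 bp, against −294 bp, which puts the match farther from the summit. Those of cct-7 lay at −248 and −242 bp, against −268 bp, which puts it closer. The window of the cct-7 peak, chrV:1871878-1872078 on the plus strand, is shown for comparison with the 3 above, with the match in capitals.
cct-7: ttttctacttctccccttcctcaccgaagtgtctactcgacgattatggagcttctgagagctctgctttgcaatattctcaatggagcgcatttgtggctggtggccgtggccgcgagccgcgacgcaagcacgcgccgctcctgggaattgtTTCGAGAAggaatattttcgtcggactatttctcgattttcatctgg

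Among the 1407 other bound protein-coding genes, 257 (18.3%) had a match in the 201 bp around the strongest window summit, read on the strand of the gene, and 25 (1.78%) had one that began 44 to 56 bp past it. That range was taken from the combined summits of the CCT genes after their positions were seen, so the comparison is a description. Of all 2993 combined summit windows 17.1% held the core. In the 500 bp upstream of the gene start the core was present in all 8 CCT genes, bound or not, against 48.3% of 19973 protein-coding genes. The match is a string of letters on both strands and was not shown to be occupied by any factor.

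The other motifs were searched in the same 500 bp. TATAAA, the TATA box, was upstream of cct-1, cct-2, cct-3, cct-4 and cct-8, where 54.0% of all genes have it. CCAAT was upstream of 6 members, all but cct-4 and cct-7, against 64.2%. TGATAA, found upstream of 43.7% of genes, was in none of the 8. None of the 8 had GAGAGAGA, found upstream of 4.96% of genes. None had the E-box CACGTG, found upstream of 8.61%, or the E2F-like string TTTCCCGC, found upstream of 2.75%. GTTCGANNC, the B box of tRNA genes, was upstream of cct-2 alone, against 2.82%. All were searched on both strands. At the promoter summits of cct-1 and cct-6 the 201 bp had less G and C than windows of the same length 600 bp away on both sides, with 41.3% against 43.0% and 38.3% against 42.8%. For cct-8 both values were 45.3%. The median over all combined summit windows was 43.8%.

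Within the gene bodies a combined summit was found in cct-5 alone, 1 of 8 members, where 4.93% of protein-coding genes had one. Both of its summits lay in an intron of 6134 bp, the longest of the family, which runs from +471 to +6604 bp. The first, at +5332 bp, had a combined signal of 122 at rank 1508, and the replicates gave 64.9 at +5412 bp and 57.8 at +5317 bp, each past its own threshold. The second, at +2074 bp, had 101 at rank 2058, with 47.5 and 56.2 in the ranked lists, and it passed in neither replicate alone. Replicate 2 had 2 further thresholded peaks in the intron, at +2811 bp with a signal of 47.8 and at +5077 bp with a signal of 5.46. The intron held thresholded peaks of both replicates at 1 place only, near +5332 bp.

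The sequences of the intron summits are shown because they share a string that the promoter peaks lack. The capitals mark GCGTCTC, which was picked out after these sequences were seen. The windows are chrIII:4502682-4502882 and chrIII:4505940-4506140 on WBcel235, both on the minus strand, for the summits at +5332 and +2074 bp.
cct-5 at +5332: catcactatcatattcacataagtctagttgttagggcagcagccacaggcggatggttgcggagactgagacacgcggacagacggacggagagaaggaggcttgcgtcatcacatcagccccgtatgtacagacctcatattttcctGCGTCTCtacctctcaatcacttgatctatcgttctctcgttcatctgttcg
cct-5 at +2074: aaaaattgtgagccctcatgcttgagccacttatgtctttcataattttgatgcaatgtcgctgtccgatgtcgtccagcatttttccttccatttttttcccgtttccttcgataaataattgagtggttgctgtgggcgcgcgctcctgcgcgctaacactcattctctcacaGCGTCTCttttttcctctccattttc

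The string was in 11.7% of all combined summit windows and upstream of 6.37% of protein-coding genes, and in the 500 bp upstream of none of the CCT genes. The intron windows were richer in G and C than their flanks, at 50.2% against 38.6% and 44.8% against 36.1%, unlike the promoter summits. The flanks of the intron windows lay in the same intron. Those of the promoter summits lay past the starts of both genes of the divergent pair. The flanks are therefore unlike, and the reason for the difference was not tested.

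A further 3 combined summits lay just past the ends of CCT genes. The peak past cct-2, with a signal of 138 at rank 1232, had its summit in a coding exon of mrpl-50, a mitochondrial ribosomal protein gene on the same strand that begins 25 bp after cct-2 ends. That summit lay +131 bp from the mrpl-50 start and passed in replicate 1 only, with signals of 75.0 and 42.7. The second peak of cct-6, with 74.2 at rank 2715, had its summit 163 bp upstream of the helicase gene ddx-23, in the 260 bp between the genes. It passed in neither replicate alone (36.9 and 62.1) and was not in the conservative list. The peak past cct-7, with 170 at rank 838, was in an untranslated exon of zig-11, which runs towards cct-7 on the other strand and overlaps its end. The replicates gave 68.9 and 93.1 there, both past their thresholds, the only one of the 3 of which this held. Its 201 bp held 3 matches to the heat shock element core, and those past cct-2 and cct-6 held none. By overlap of the whole peak interval in place of the summit, the bodies of cct-2, cct-5 and cct-6 were reached, 3 of 8, against 7.64% of protein-coding genes.

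Weak ranked summits were frequent along the CCT genes. The 8 bodies held 69, or 1.84 per kb, and the members ranged from 1.39 per kb (cct-1) to 2.20 per kb (cct-8). All protein-coding bodies together held 0.794 per kb, and 25.2% of genes had at least 1.39 per kb, while 48.8% had no ranked summit. Apart from those of cct-5, none of these passed the threshold of the combined list. At a lower score of 540, where −log10 of the IDR was at least 1.30, the promoter window of cct-7 also had a summit, which made 4 of 8 members against 9.77% of protein-coding genes. That cut was chosen after the values were seen.

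The companion genes comprise listed partners and substrates of CCT and genes of other chaperone systems, so not all of them work with CCT. Their lists were compiled with earlier results of these data known. They were bound in 14 of 46 cases (30.4%), beside the 7.06% of all protein-coding genes. Of the prefoldin subunit genes 3 of 6 were bound, pfd-1 (combined signal 273), pfd-6 (151) and pfd-3 (113). The peak of pfd-1 passed in both replicates, that of pfd-6 in replicate 2 only and that of pfd-3 in replicate 1 only. For the mitochondrial chaperonin, a distant relative of CCT, hsp-60 and the cochaperonin gene Y22D7AL.10 shared 1 peak of signal 793 (422 and 378 in the replicates), which lies −608 bp from hsp-60 and −205 bp from Y22D7AL.10.

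Among the substrates of CCT, the actin genes had 1 of 5 bound and the tubulin genes 4 of 16. These were act-4 (87.3), which passed in neither replicate alone and is not in the conservative list, and tba-2 (491), tbg-1 (222), tbb-1 (151) and tba-7 (91.4), of which tba-7 passed in neither replicate alone. Of the tubulin folding cofactors coel-1 (156) was bound, 1 of 5. A second, tbca-1 (ranked signal 85.2, score 787), missed the threshold of the combined list but was bound in the conservative list, which made 2 of 5 there. None of 4 genes for WD40 proteins, a class with members folded by CCT in yeast and mammals, was bound. Neither were pdl-1 and txdc-9, which were listed as CCT cochaperones, a role that was not checked here. In the cytosolic Hsp70 and Hsp90 system 3 of 6 were bound, the Hsp70 gene hsp-1 (307), its relative hsp-110 (470) and the Hsp90 cochaperone gene sti-1 (130), while hsp-90, cdc-37 and hsf-1 were not. Some of the unbound genes, among them the WD40 gene gpb-1, pdl-1, txdc-9 and hsp-90, were called in alternative settings given at the end. With the nearest start only, 5 of the 14 lost their call, and these were hsp-110, hsp-60, pfd-1, tbb-1 and tbg-1. That left 9 of 46 companions bound (19.6%), while the bound protein-coding genes fell from 1410 to 1097 (5.49%). Over the 8 CCT genes the median of the strongest combined ranked signal was 59.1, against 80.4 for prefoldin, 57.5 for actin, 32.3 for tubulin and 0 for all protein-coding genes, of which 43.3% had a ranked peak in the window.

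**Figure D4:**
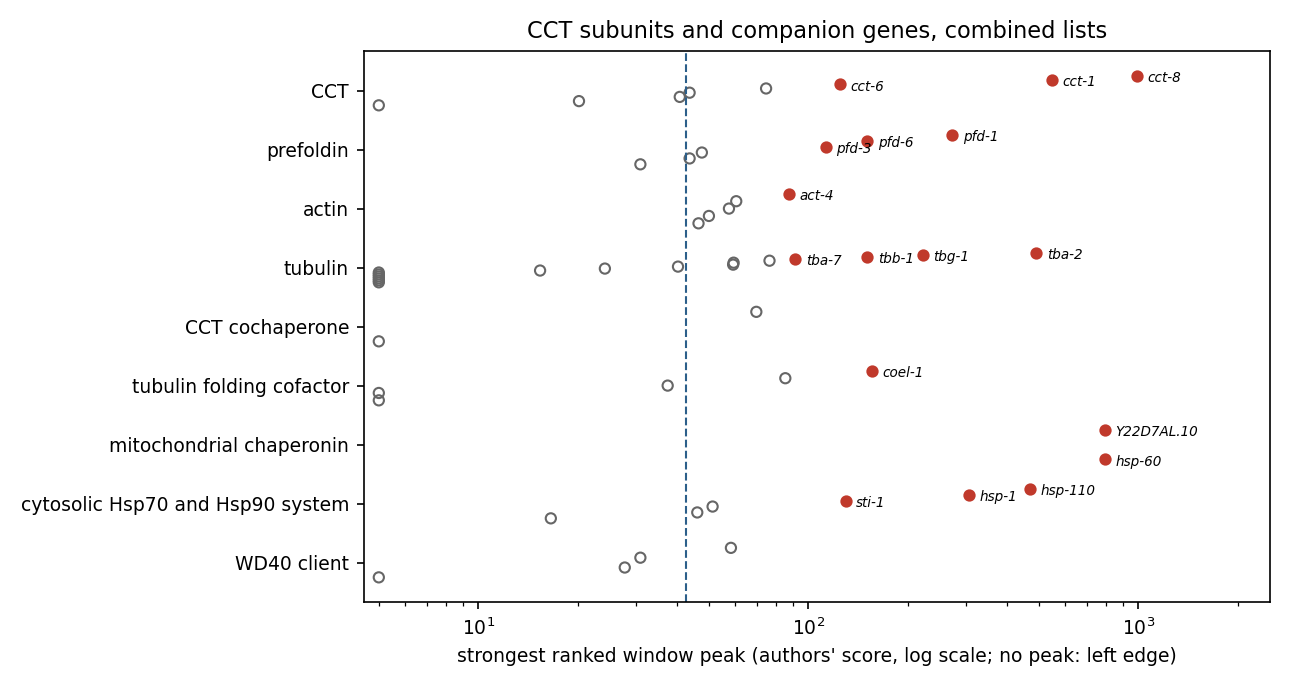
Strongest combined ranked peak in the promoter window (horizontal axis, the authors' peak signal on a log scale) for each CCT gene and each companion gene, by list; filled points have a combined summit in the window and are named, open points do not, genes with no ranked peak are drawn at the left edge, and the dashed line is the median of 42.7 over protein-coding genes with a peak. Bound members appear in the CCT list (3 of 8), prefoldin (3 of 6), tubulin (4 of 16) and the Hsp70 and Hsp90 system (3 of 6), while the WD40 and CCT cochaperone lists have none.

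The genes most like cct-8 in signal were found by Euclidean distance in log2 signal over the combined list and the ranked lists of both replicates, among 1376 genes with a value in each. The nearest was Y55F3AR.2, at 0, which shares the peak. Next, at 0.0268, came rpl-15, a large ribosomal subunit protein gene, and K11H12.8, which share another peak on chromosome IV with signals of 985, 491 and 492. This likeness rests on 2 replicates and 1 peak each. The combined signal was close to the sum of the replicates in these lists, with a median ratio of 0.995 over the same 1376 genes and ratios of 0.996 for cct-8, 0.991 for cct-1 and 1.00 for cct-6.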

How the data were processed

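ChIP-seq of GFP-tagged T26A8.4 was analysed from 7 deposited peak lists on ce11, the assembly of WBcel235, per the file listings. They rest on alignments whose software, like the peak caller, was not given in the sources used here. The deposited lists give for each peak an integer score, up to 1000, and a signal, which is also a score of the authors whose scale is not given, and the ranked lists also give the IDR as −log10. Read depth is unknown from these files. A second ranked list of both replicates was not used, and no control library was analysed here.

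Summits were placed on the Ensembl release 115 annotation and the RefSeq WBcel235 genome, whose chromosome lengths held all peaks. Counts of members were set beside counts over all 19973 protein-coding genes. No test was run, since the members and lists were chosen with earlier results of these data known and the design has 1 group. The 8 fixed motifs and GCGTCTC were searched on both strands. Named genes were the members, genes sharing a member's summit, bound companion genes and the 3 genes most like the strongest member; divergent neighbours, genes next to a described peak and unbound companions were named after their values were seen. The name daf-21 found no match, its gene being listed as hsp-90. Alternatives were other peak lists, windows and gene starts, interval overlap and the nearest start only. Python 3.11.15, NumPy 2.4.6, pandas 2.3.3 and Matplotlib 3.10.9 were used, and the scripts were tested on simulated data.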

Additional observations from a re-analysis of the deposited data

How the results depend on the processing

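Shares of all protein-coding genes bound in the same setting are in parentheses. The CCT promoter count of 3 of 8 was also found in the conservative list (6.63%). It was the same with only the stronger 50% of peaks by signal (4.54%) and with interval overlap (7.97%). The same count held in windows of 500 bp upstream to 100 bp downstream (5.16%) and 2000 bp upstream to 500 bp downstream (10.1%). With all transcript starts it was again 3 (7.73%). The CCT count was 2 without replicate 1 (5.50%) and without replicate 2 (4.84%), in both cases without cct-6. It was 0 with the nearest start only (5.49%), where the companion count was 9. In the other settings the companion count ran from 10 of 46, in the narrower window and without replicate 2, to 19 in the wider window. The wider window and all transcript starts added gpb-1, and the wider window and interval overlap added pdl-1. All transcript starts also added hsp-90, and a score of at least 540 added txdc-9. The signals of cct-1, cct-6 and cct-8 had the same values in the conservative list and both other windows. The CCT body count of 1 (4.93%) was 0 with the stronger 50% of peaks (2.34%) and 3 with interval overlap (7.64%). It was 4 at a score of at least 540 (9.42%), a setting chosen after the data were examined. For all protein-coding genes the stronger 50% gave 906 in promoter windows and 468 in bodies, interval overlap gave 1525 bodies and the lower score 1881 bodies; leaving out a replicate gave 631 to 668 bodies. The lists differ in their number of peaks by construction. No paired analysis was possible because the series has 1 group. Peak lists hold no read counts, so an absent peak does not show absent binding.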
